A study of Homo sapiens with 16 samples.

Results

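The 36 genes described here encode the BMP and TGF-beta pathway: 5 BMP ligands, 5 activin, nodal and GDF ligands, 3 TGF-beta ligands, 7 secreted antagonists, the pseudoreceptor BAMBI, 4 type I and 4 type II receptors, the co-receptor TGFBR3, 2 inhibitory SMADs and the 4 ID genes, which are targets of the pathway. The list was set by known function and not by a threshold on values, with earlier results of these data known. All 36 were found by symbol among the 57736 genes of the table, and all 36 were among the 24249 genes that passed the filter on low counts and were tested. RNA was sequenced from H9, an established human embryonic stem cell line, before neural induction (D0) and after 12, 30 and 70 days of differentiation into cortical neurons (D12, D30, D70). At each stage there were 2 libraries of control cells, which received the solvent DMSO, and 2 libraries of cells kept in 40 µM Thiamet-G (TMG), an inhibitor of O-GlcNAcase, the enzyme that removes O-GlcNAc sugar from proteins. All 8 groups come from 1 cell line, and the study calls the 2 libraries of a group biological replicates, without stating which cultures they came from, so the p-values below measure the spread between these libraries.

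BMP and TGF-beta ligands bind pairs of type I and type II receptor kinases on the cell surface, and the type I kinase then phosphorylates SMAD proteins that enter the nucleus and switch target genes on. BMPs signal through SMAD1, SMAD5 and SMAD8, while nodal, activins and TGF-betas signal through SMAD2 and SMAD3. Secreted antagonists such as noggin bind the ligands outside the cell, and the inhibitory SMADs and BAMBI dampen the signal from within or at the membrane. Nodal and activin signals help to keep human embryonic stem cells undifferentiated, and BMP signals turn ectoderm away from a neural fate. The cultures of both arms were therefore induced by the established method of dual SMAD inhibition, in a medium with LDN-193189, which blocks BMP type I receptor kinases, and SB-431542, which blocks activin and TGF-beta type I receptor kinases. The study's methods give these inhibitors for the neural induction medium only. That medium was then replaced by one for cortical neurogenesis, for which no inhibitor is listed. Cells at the end of induction therefore also differed in medium from those of the stages before and after it. The part of the inhibitors in the changes between stages was not tested. RNA levels do not show whether a receptor was active.

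Library totals lay between 10334908 and 19836878 estimated counts. Levels are given as CPM (counts scaled to a common library size, with TMM factors), replicate 1 before replicate 2, and a fold change is on the log2 scale with its standard error. The sum of 8 mesenchyme and stroma markers was higher at each later stage in control cells, going from 166.8 and 179.9 CPM on D0 to 1156 and 1316 CPM on D12, 4562 and 5308 CPM on D30 and 7724 and 45370 CPM on D70. The summed level of 6 stem cell markers went from 3228 to 3697 CPM in the 4 libraries of D0 to at most 3.47 CPM in the 4 of D70, and the sum of 5 neural progenitor markers from 217 to 377 CPM on D0 to 598 to 1152 CPM on D12. Some libraries stood apart from their replicate. On D30 the stroma marker sum was 29820 CPM in TMG replicate 2 and 4562 to 5718 CPM in the other 3 libraries, and all 8 markers had counts. On D70 it was 45370 and 59150 CPM in replicate 2 of control and TMG against 7724 and 4064 CPM in replicate 1, while the sum of 6 roof plate and choroid plexus markers was 10300 and 3125 CPM in replicate 1 against 233 and 29.97 CPM in replicate 2. In D70 TMG replicate 2 the neural progenitor sum was 77.0 CPM against 484 to 768 CPM in the other 3 libraries of that day. On D0, control replicate 2 was above the other 3 libraries in ID1, ID4, LEFTY1 and BMP4, and its neural crest marker sum was 67.4 CPM against 26.5 to 30.8 CPM. For 8 libraries a separate treatment tag names the other arm than the title does: at each stage the tag calls replicate 1 of both arms control and replicate 2 of both arms TMG. The titles, with which the sample codes go, were followed, and each statement on TMG rests on them. OGT, the enzyme that adds O-GlcNAc, had higher values in both libraries titled TMG than in both titled control at each of the 4 stages, 1.16-fold, 1.26-fold, 1.55-fold and 1.32-fold from D0 to D70 (edgeR adjusted p = 1, 1, 0.194 and 0.894), and by the tags the groups would overlap. MGEA5, the gene of O-GlcNAcase, was higher in both libraries titled TMG on D0 and D70, 1.31-fold and 1.34-fold. On D12 and D30 its groups overlapped, with means 1.16-fold and 1.12-fold higher in the libraries titled TMG. With bulk RNA, a change in the share of a cell type and a change of RNA per cell cannot be told apart.

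In control cells, 24 of the 36 genes (66.7%) passed for at least 1 of the 6 pairs of stages in edgeR's quasi-likelihood test with Benjamini-Hochberg adjusted p-values at a threshold of 5%, and 44.8% of all genes tested did. Of the 13 ligands 11 passed, all but BMP5 and GDF11, as did the 4 type I receptors and 5 antagonists, and none of the 4 ID genes passed the test. By role, 4 of 5 BMP ligands, 4 of 5 activin, nodal and GDF ligands, 3 of 3 TGF-beta ligands, 5 of 7 antagonists, 4 of 4 type I receptors, 2 of 4 type II receptors, the co-receptor and 1 of 2 inhibitory SMADs were called in at least 1 pair. From D0 to D12, 7 genes rose and 6 fell (36.1% of the 36). Of all genes tested 16.7% were called, 6.97% higher and 9.71% lower, and the median log2 fold change over the 36 was 0.566 against 0.00328 over all genes tested. On D30 against D0, 11 were higher and 5 lower (44.4%, against 30.6% of all genes, 14% higher and 16.7% lower), with a median of 1.09 against -0.0197. On D70 against D0, 12 were higher and 6 lower (50%, against 29.8%, 15% higher and 14.7% lower), with a median of 1.02 against 0.0272. These medians were the same with GDF3, and CER1 where it was at 0, set to their bounds. Between D12 and D30, 2 rose and 1 fell (8.33%, against 3.6%, 1.91% higher and 1.69% lower), and on D70 against D12, 10 were higher and 3 lower (36.1%, against 11.1%, 6.44% higher and 4.66% lower). From D30 to D70 edgeR called 0 of the 36 (0.384% of all genes), while 6 had an unadjusted p under 0.05 (18.4% of all genes) and DESeq2 called 6 (16.7%, against 7.08% of all genes).

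Of the 63 calls of a gene in a pair of stages in control cells, 20 calls of 11 genes were kept under each of the alternative settings and each left-out library that could be run for them. The calls kept were those of GDF3, LEFTY1 and GREM1 on D12, D30 and D70 against D0, of NODAL, TGFB1 and TGFB2 on D30 and D70 against D0, of BMP2 and SMAD7 on D12 against D0, of BMPR1B on D30 against D0, and of TGFB3 and BMPR2 on D70 against D0. The counts of calls moved with single libraries. On D12 against D0 the 13 calls became 7 and 6 without D0 control replicate 1 or 2 and 7 and 5 without D12 control replicate 1 or 2. On D30 against D0 the 16 calls became 25 with a replicate block (against 42.1% of all genes) and 10 without D0 control replicate 1, D0 control replicate 2 or D30 control replicate 1, and on D70 against D0 the 18 became 10 without D0 control replicate 1 (14.2%). On D30 against D12 the 3 calls became 8 with DESeq2 (10.3% of all genes), 9 with the block (13.7%), 10 without the D70 libraries (13.7%) and 0 without any 1 control library of those stages. On D70 against D12 the 13 calls became 1 in a fit of these stages alone (0.455% of all genes), 0 without D12 control replicate 1 or 2, and 6 to 8 without any of 10 other single libraries, those of D0, D12 TMG, D30 control and D70 control. Over the single left-out libraries the share of all genes called ran from 3.96% to 20.3% for D12 over D0, 13.9% to 34.7% for D30 over D0, 14.2% to 34.1% for D70 over D0, 0% to 5.64% for D30 over D12 and 1.33% to 16.3% for D70 over D12.

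**Figure D1:**
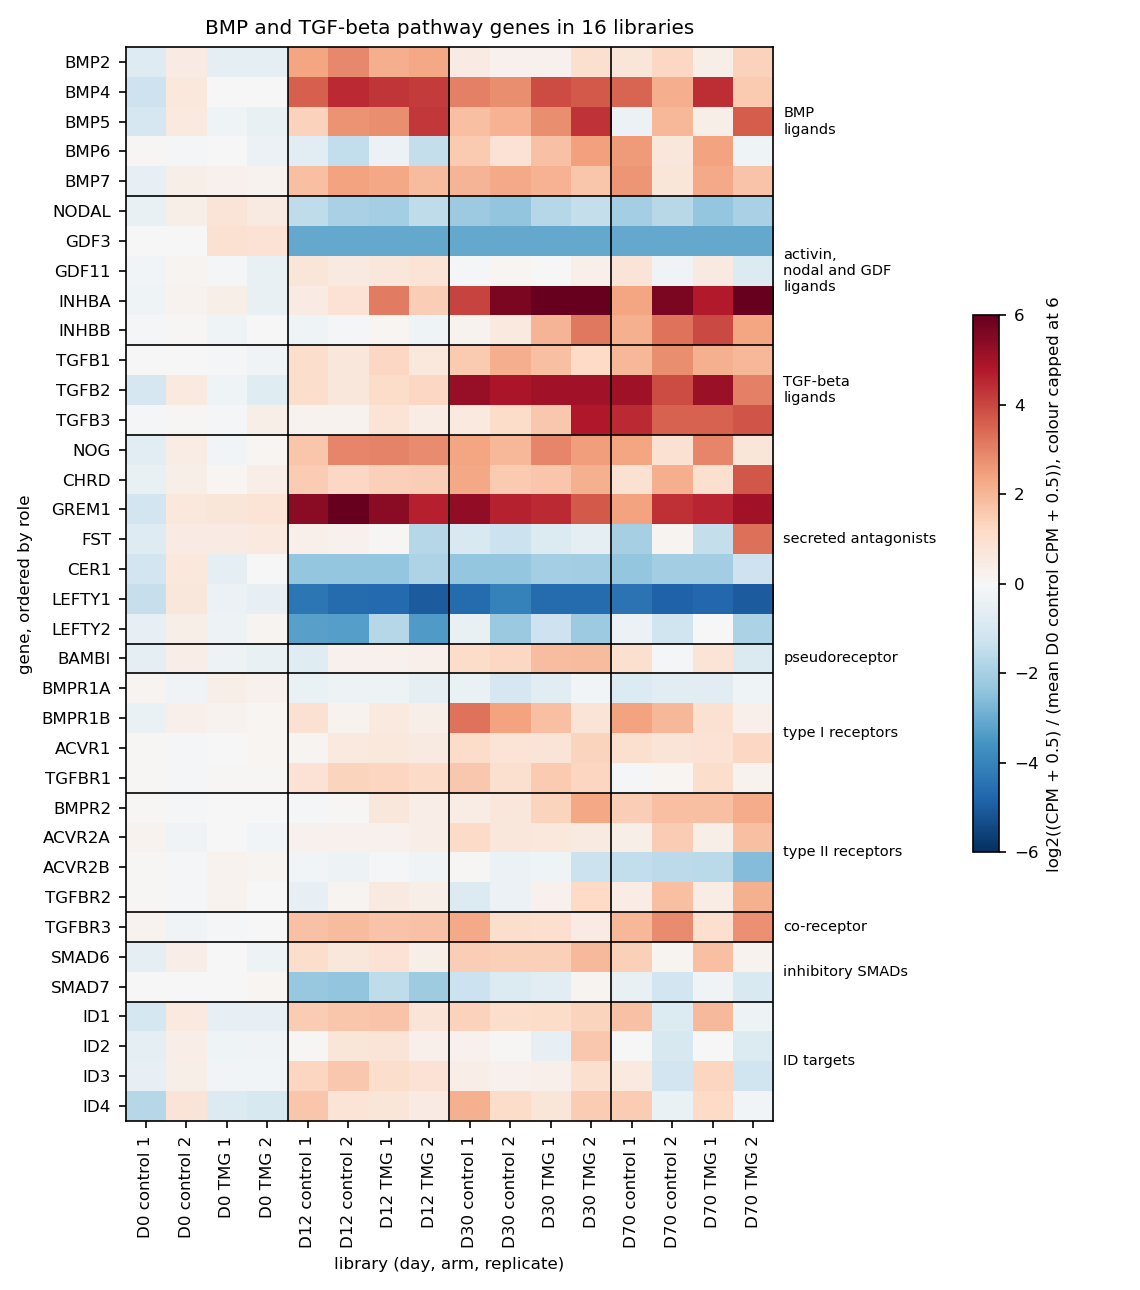
Each row is 1 of the 36 genes, ordered by role, and each column 1 of the 16 libraries; colour is the log2 ratio of CPM + 0.5 to the mean of the 2 D0 control libraries + 0.5, red above and blue below, capped at 6. GDF3, NODAL, CER1 and LEFTY1 were below D0 in each later library, GREM1 and BMP4 were above it, and TGFB2 was strongly above it from D30.

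Among the BMP ligands, BMP2, BMP4 and BMP7 rose by D12, the end of neural induction. The neural crest marker sum was also higher on D12, going from 30.8 and 67.4 CPM on D0 to 110 and 144 CPM in control cells. The roof plate and choroid plexus marker sum rose more, from 6.98 and 9.86 CPM to 224 and 271 CPM. The part of these and other cell types in the changes was not tested. BMP4, a dorsalizing ligand encoded on chromosome 14 (GRCh37 chr14:54416454-54425479, minus strand), was at 0.927 and 4.76 CPM in the control libraries of D0, 39.4 and 73.9 CPM on D12, 26.3 and 22.5 CPM on D30 and 36.96 and 14.6 CPM on D70. Both D12 libraries were above both of D0, and so were both of D30 and of D70. The log2 fold change of D12 over D0 was 4.33 ± 0.95 (edgeR adjusted p = 0.0132), and on D30 over D0 it was 3.11 ± 0.91 (adjusted p = 0.0256). BMP2, a close relative of BMP4, was at 4.70 and 11.8 CPM on D0 and 45.4 and 65.04 CPM on D12, and it had returned to 11.7 and 10.1 CPM by D30. Its rise to D12 (2.74 ± 0.48, adjusted p = 0.00489) and its fall to D30 (-2.35 ± 0.47, adjusted p = 0.0255) both passed edgeR's test. The D30 libraries of BMP2 lay within the range of D0, whereas those of BMP4 and BMP7 lay above it. BMP7, which is made by roof plate and surface ectoderm, was at 22.9 and 41.5 CPM on D0, 115 and 174 CPM on D12, 135 and 159 CPM on D30 and 206 and 54.00 CPM on D70. Its log2 fold change of D12 over D0 was 2.17 ± 0.53 (edgeR adjusted p = 0.0206). BMP6 was low up to D12, and its control mean was 1.52 CPM on D12 and 9.24 CPM on D30, a change that did not pass. In control cells it passed edgeR's test only for D12 and D70 (2.11 and 0.931 against 23.5 and 5.88 CPM, adjusted p = 0.0489). That call was lost in 15 of 21 alternatives. BMP5 did not pass the test in control cells, with 0.185 and 1.61 CPM on D0, 3.15 and 8.65 CPM on D12, 4.42 and 5.47 CPM on D30 and 0.579 and 4.99 CPM on D70.

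Levels of different genes were compared per kilobase of exon. BMP7 had the highest mean of the BMP ligands at each stage in control cells, with 5.94 ± 2.44 CPM per kilobase before induction and 26.7 ± 7.74, 27.2 ± 3.17 and 24.0 ± 19.8 CPM per kilobase on D12, D30 and D70 (SD, n = 2 libraries). BMP4 came next from D12 on, with 18.3 ± 7.88 CPM per kilobase on D12, within the spread of BMP7, and 7.88 ± 0.875 on D30, below the range of BMP7. BMP2 was at 15.6 ± 3.92 CPM per kilobase on D12, which lies within the spread of BMP4.

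The ligands tied to the undifferentiated state fell at the first step. GDF3, a stem cell gene on chromosome 12 (GRCh37 chr12:7842380-7848371, minus strand), was at 3.77 and 3.57 CPM in control cells and 7.34 and 7.21 CPM in TMG cells on D0, and it had 0 counts in each of the 12 later libraries. With a floor of 3 counts per library, D0 control cells were at least 23.5-fold higher than D12, 17.0-fold higher than D30 and 16.9-fold higher than D70. NODAL, the founding ligand of the SMAD2 and SMAD3 branch in the embryo (chr10:72191692-72207707, minus strand), was at 2.78 and 5.11 CPM on D0, 1.03 and 0.657 CPM on D12, 0.470 and 0.351 CPM on D30 and 0.579 and 0.885 CPM on D70. No later control library reached the level of a D0 library, and the fold change of D12 over D0 was -2.21 ± 0.48 (edgeR adjusted p = 0.012). GDF11 stayed between 2.66 and 5.66 CPM in the 8 control libraries and did not pass the test in any pair.

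The activin subunits rose late, likewise beside the higher stroma marker sum. INHBA, which encodes the subunit of activin A (chr7:41706766-41745432, minus strand), was at 0.0618 and 0.280 CPM on D0, 0.442 and 0.712 CPM on D12, 10.6 and 33.2 CPM on D30 and 2.96 and 33.4 CPM on D70. The 2 libraries of D30 and of D70 lay far apart from each other, and all 4 were above the 4 of D0 and D12. The difference passed edgeR's test for D30 and D70 against D0 (adjusted p = 0.0103 and 0.0127) and rested on 5 counts in the 2 control libraries of D0. INHBB, which encodes the subunit of activin B, had at most 0.402 CPM in the control libraries up to D30 and 2.12 and 5.31 CPM on D70 (D70 over D0, adjusted p = 0.00799). Per kilobase, INHBA was at 2.64 ± 1.93 CPM per kilobase on D30 and 2.19 ± 2.60 on D70, and INHBB at 1.16 ± 0.704 on D70 (SD, n = 2), which overlap.

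All 3 TGF-beta ligands rose. TGFB1 and TGFB2 first passed the test against D0 on D30, and TGFB3 on D70. The stroma marker sum was also higher over these stages, and its part in these changes was not tested. TGFB2 (chr1:218518678-218617961, plus strand) was at 1.79 and 6.58 CPM on D0 and 9.19 and 7.06 CPM on D12, and it then reached 173 and 138 CPM on D30 and 157 and 71.2 CPM on D70. The 4 libraries of D30 and D70 were all above the 4 earlier ones, with a log2 fold change of D30 over D12 of 4.26 ± 0.75 (edgeR adjusted p = 0.0174). TGFB1 had 6.18 and 6.50 CPM on D0, 13.8 and 10.6 CPM on D12, 19.8 and 30.7 CPM on D30 and 26.8 and 47.2 CPM on D70. Its mean was higher at each stage than at the one before, without an overlap between D0 and any later stage. The change to D12 did not pass the test (0.94 ± 0.35, adjusted p = 0.0875), and that to D30 did (2.00 ± 0.35, adjusted p = 0.00228). TGFB3 (chr14:76424440-76449354, minus strand) stayed between 2.66 and 6.62 CPM in control cells up to D30 and was at 74.3 and 38.5 CPM on D70 (D70 over D12, 4.06 ± 0.81, adjusted p = 0.0131). Per kilobase, TGFB1 had the highest mean of the 3 on D0 and D12, with 1.94 ± 0.0706 and 3.73 ± 0.692 CPM per kilobase, and TGFB2 on D30 and D70, with 25.7 ± 4.07 and 18.9 ± 10.1 (SD, n = 2). On D70 the 3 ligands did not differ beyond their spread, with TGFB1 at 11.3 ± 4.43 and TGFB3 at 10.8 ± 4.85 CPM per kilobase.

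Of the 7 antagonists in control cells, GREM1 and NOG rose on D12, CER1, LEFTY1 and LEFTY2 fell, and CHRD and FST were called in no pair. GREM1, which binds BMP2, BMP4 and BMP7 (chr15:33010205-33037307, plus strand), was at 0.371 and 2.45 CPM on D0, 80.9 and 121 CPM on D12, 74.7 and 46.3 CPM on D30 and 9.71 and 39.3 CPM on D70. Its rise to D12 of 6.18 ± 0.88 was the largest log2 rise among the 36 genes in that pair (edgeR adjusted p = 0.00214). NOG, which encodes the BMP antagonist noggin, was at 1.30 and 3.29 CPM on D0 and 8.26 and 20.9 CPM on D12, and both later libraries were above both of D0 (2.67 ± 0.79, adjusted p = 0.0428), a call that was lost in 13 of 22 alternatives. CHRD, the chordin gene, was at 1.48 and 2.87 CPM on D0, 7.13 and 5.91 CPM on D12, 12.9 and 7.33 CPM on D30 and 4.56 and 11.6 CPM on D70. Its D0 libraries were below the 6 later ones, and no pair passed the test (D30 over D0, 2.21 ± 0.79, adjusted p = 0.054, 0.00155 to 0.245 over the 22 alternatives, 8 of them under 0.05). FST, the activin antagonist follistatin, was at 18.1 and 43.9 CPM on D0, 38.1 and 36.9 CPM on D12, 16.4 and 12.2 CPM on D30 and 7.39 and 34.7 CPM on D70, which overlap between D0 and D70, and it was called in no pair.

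CER1, LEFTY1 and LEFTY2 are antagonists of nodal that are themselves switched on by nodal signals. LEFTY1 was at 7.79 and 34.5 CPM on D0 in control cells, and no later control library was above 0.803 CPM (D12 over D0, -5.41 ± 0.74, edgeR adjusted p = 0.00174). Without D0 control replicate 2, in which LEFTY1 was highest, this call was kept. CER1 was at 0.618 and 3.36 CPM on D0 and had 0 counts in the control libraries of D12 and D30, so that the D0 mean was at least 12.8-fold and 9.19-fold higher, and the lower D0 library, replicate 1, at least 3.97-fold and 2.86-fold. Both calls were lost without D0 control replicate 2. LEFTY2 was at 4.26 and 7.97 CPM on D0 and 0.197 and 0.164 CPM on D12 (-5.02 ± 1.24, adjusted p = 0.0216), and unlike LEFTY1 it was again at 4.32 and 0.903 CPM on D30 and 4.63 and 2.41 CPM on D70. The 2 LEFTY genes are neighbours on the minus strand of chromosome 1 (chr1:226073982-226099082 for LEFTY1 and chr1:226124298-226129083 for LEFTY2) and are near copies, so the estimated counts can be divided between them with an error that the table does not give.

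**Figure D2:**
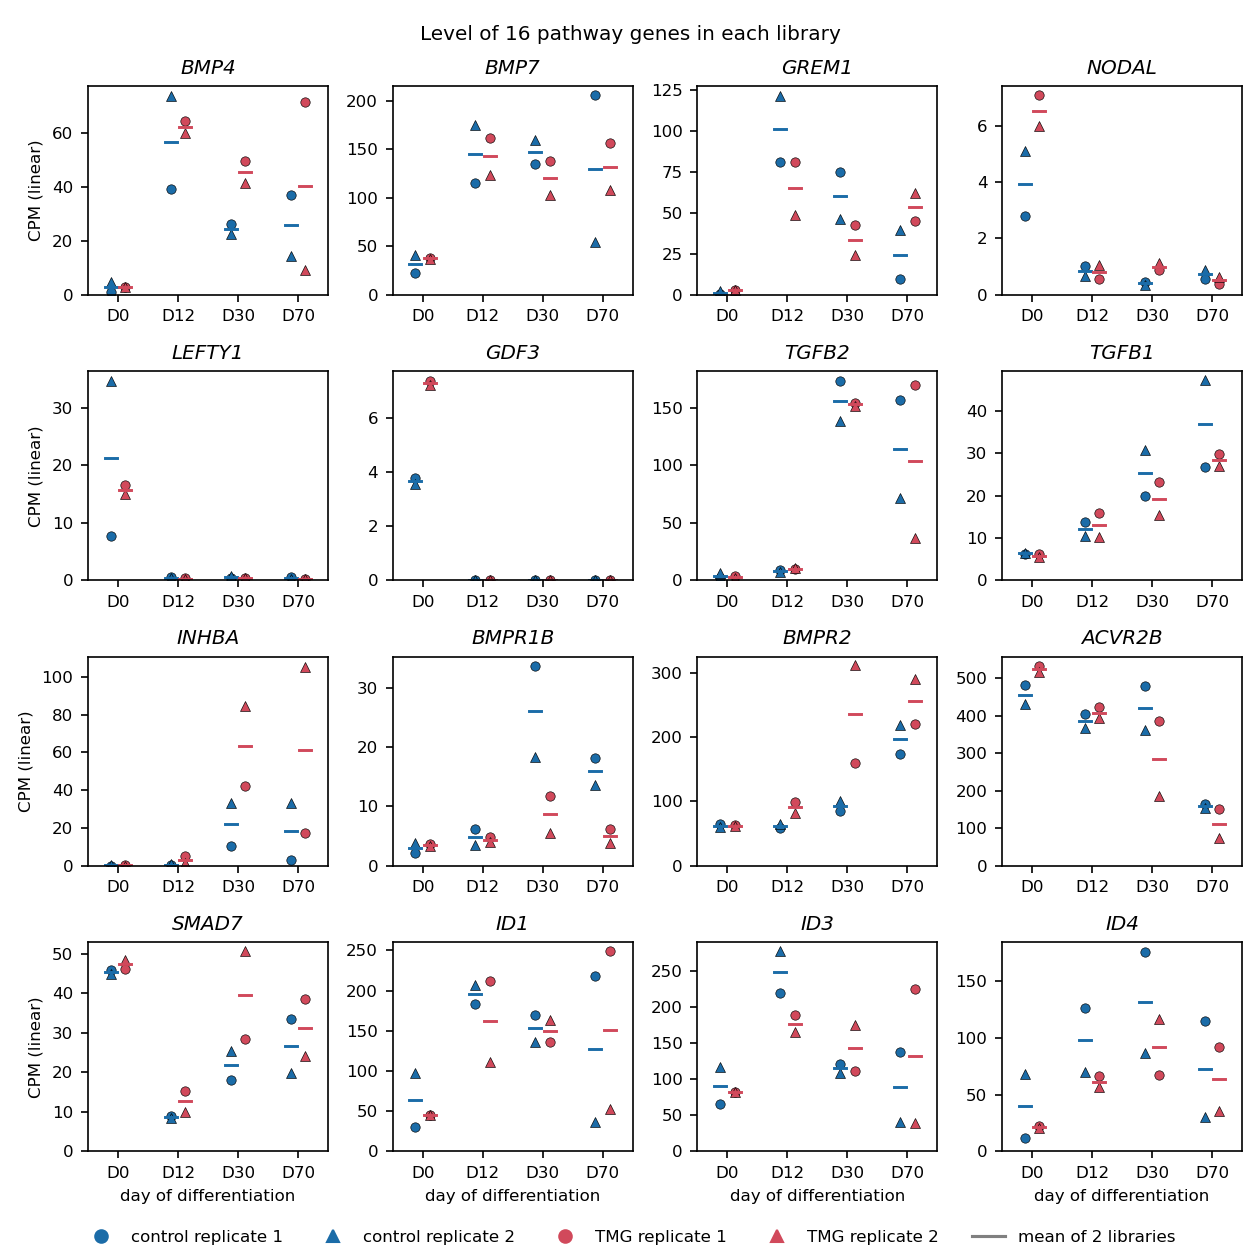
Linear CPM of 16 genes in each library (circles replicate 1, triangles replicate 2, blue control, red TMG) by day, with a short line at the mean of 2 libraries. NODAL, LEFTY1 and GDF3 sat near 0 after D0, and TGFB2 was above 37 CPM in each D30 and D70 library and under 11 CPM before. The means of BMP4 and GREM1 were highest on D12 in each arm, while single D70 libraries reached the range of D12 for BMP4.

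All 4 type I receptors passed the test in at least 1 pair. BMPR1B, a BMP receptor of neural progenitors (chr4:95679106-96079599, plus strand), was at 2.16 and 3.92 CPM on D0, 6.24 and 3.56 CPM on D12, 33.6 and 18.4 CPM on D30 and 18.3 and 13.6 CPM on D70. Both libraries of D30 were above the 4 earlier ones, with a log2 fold change over D12 of 2.40 ± 0.49 (edgeR adjusted p = 0.0266). TGFBR1, the type I receptor of TGF-betas and the target of SB-431542, was at 126 and 114 CPM on D0, 221 and 305 CPM on D12, 365 and 235 CPM on D30 and 112 and 129 CPM on D70. It was higher on D12 than on D0 (1.13 ± 0.29, adjusted p = 0.0239) and lower on D70 than on D12 (-1.12 ± 0.29, adjusted p = 0.0321), and its D70 libraries overlapped those of D0. ACVR1 rose from 18.7 and 16.7 CPM on D0 to 38.6 and 31.8 CPM on D30 (0.99 ± 0.24, adjusted p = 0.00993). BMPR1A, a widely expressed BMP type I receptor, went from 177 and 136 CPM on D0 to 87.8 and 102 CPM on D70 (-0.72 ± 0.25, adjusted p = 0.0488), a call that was lost in 14 of 21 alternatives. BMPR1A exceeded BMPR1B at each stage per kilobase, with 15.5 ± 2.90 against 0.463 ± 0.189 CPM per kilobase on D0 and 9.80 ± 2.92 against 3.97 ± 1.64 on D30 (SD, n = 2).

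Of the type II receptors, BMPR2 rose and ACVR2B fell. BMPR2, which binds BMPs (chr2:203241050-203432474, plus strand), was at 64.9 and 59.5 CPM on D0, 59.4 and 64.9 CPM on D12, 85.3 and 101 CPM on D30 and 174 and 218 CPM on D70. The 2 D70 libraries were above the other 6 control libraries, and D70 over D0 was 1.66 ± 0.28 (edgeR adjusted p = 0.00192). ACVR2B, a receptor of activins and nodal, was at 482 and 432 CPM on D0, 405 and 369 CPM on D12, 479.6 and 363 CPM on D30 and 165 and 154 CPM on D70 (D70 over D0, -1.52 ± 0.36, adjusted p = 0.00981). Per kilobase ACVR2B led the type II receptors on D0, with 29.1 ± 2.25 CPM per kilobase against 4.98 ± 0.307 for BMPR2, and on D70 BMPR2 led with 15.7 ± 2.49 against 10.2 ± 0.489 (SD, n = 2). ACVR2A and TGFBR2 passed the test in no pair in control cells. ACVR2A was at 33.3 and 24.6 CPM on D0 and 37.6 and 84.3 CPM on D70, and TGFBR2, the TGF-beta type II receptor, at 16.7 and 15.5 CPM on D0, 9.02 and 12.5 CPM on D30 and 22.3 and 57.9 CPM on D70, in both with a high replicate 2 on D70. TGFBR3, the co-receptor betaglycan, rose from 12.98 and 9.58 CPM on D0 to 39.1 and 43.1 CPM on D12 and was at 46.8 and 84.3 CPM on D70 (D70 over D0, 2.54 ± 0.55, adjusted p = 0.00711).

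SMAD7, the inhibitory SMAD that blocks TGF-beta, activin and BMP receptors and is a target of their signals, fell on D12. It was at 45.9 and 44.97 CPM on D0, 9.04 and 8.54 CPM on D12, 18.1 and 25.4 CPM on D30 and 33.6 and 19.9 CPM on D70. D12 was below the other stages without overlap, with a log2 fold change over D0 of -2.37 ± 0.37 (edgeR adjusted p = 0.00302), and D70 was above D12 (1.60 ± 0.36, adjusted p = 0.0208). SMAD6, which acts mainly on the BMP branch, was at 11.4 and 22.7 CPM on D0 and 35.6 and 27.4 CPM on D12, and it was at 48.9 and 46.7 CPM on D30 and 46.03 and 18.99 CPM on D70. Its change to D30 had an adjusted p of 0.0583, and over the 22 alternatives the adjusted p ran from 0.00463 to 0.262, with 8 under 0.05. BAMBI, a receptor without a kinase domain that is induced by BMP signals, was at 14.99 and 29.7 CPM on D12 and 53.9 and 59.1 CPM on D30, where both libraries were above the 4 earlier ones (D30 over D12, 1.34 ± 0.54, adjusted p = 0.191, 0.0282 to 0.559 over the 22 alternatives).

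The 4 ID genes encode inhibitors of basic helix-loop-helix factors that hold back neuronal differentiation, and ID1 and ID3 are among the best known direct targets of BMP signals. ID1 was at 30.8 and 97.8 CPM on D0, 183 and 207 CPM on D12, 169.6 and 136 CPM on D30 and 218 and 36.6 CPM on D70 in control cells. ID3 was at 65.2 and 116 CPM on D0, 219.7 and 277 CPM on D12, 121 and 109 CPM on D30 and 137 and 41.1 CPM on D70. For both genes the 2 libraries of D12 were above the 2 of D0, and on D70 the 2 libraries were on either side of the D0 mean. ID4 was at 11.9 and 68.2 CPM on D0 and 126 and 70.02 CPM on D12, where the groups did not overlap either, and ID2 was at 36.7 and 71.7 and 57.5 and 89.6 CPM, where they did. The log2 fold changes of D12 over D0 were 1.60 ± 0.84 for ID1, 0.44 ± 0.58 for ID2, 1.46 ± 0.70 for ID3 and 1.30 ± 0.81 for ID4, and edgeR's adjusted p was 0.216, 0.645, 0.179 and 0.297. The calls of ID1 and ID3 depended on the fit: both passed in a fit of the D0 and D12 libraries alone (adjusted p = 0.0379 and 0.00475), with a replicate block (0.021 and 0.012) and without the D70 libraries, and over the 22 alternatives the adjusted p of ID1 ran from 0.021 to 0.578 and that of ID3 from 0.00475 to 0.488. Without D0 control replicate 2, which was the highest of the D0 libraries in each of the 4, the log2 fold changes were 2.67 ± 1.10 for ID1 and 3.04 ± 0.93 for ID4 (adjusted p = 0.183 and 0.0821), and without D0 control replicate 1 they were 1.03 ± 0.99 and 0.56 ± 0.79 (adjusted p = 0.578 and 0.721). ID1 and ID3 were the highest of the 4 per kilobase, with 158 ± 13.8 and 166 ± 27.2 CPM per kilobase on D12 against 33.2 ± 10.3 for ID2 and 25.4 ± 10.3 for ID4 (SD, n = 2).

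Promoter sequences were available from RefSeq (GRCh38.p14) for 31 of the 36 genes, and 250 bases upstream of the start were searched on both strands for short motifs bound by SMAD proteins. GGCGCC, bound by SMAD1 and SMAD5, was in 16.4% of 35116 promoters and in 8 of the 49 windows of the 31 genes (16.3%), a share near that of all promoters. GTCTG or its complement CAGAC was in 38.0% of all promoters and in 20 of the 49 windows (40.8%), likewise near it, and the palindrome GTCTAGAC was in 0.182% of all promoters and, of the 31 genes, in SMAD6, 12 bases before the start. A BMP response element, GGCGCC followed by GTCT after a gap of 5 bases, was in 0.0769% of all promoters and in 0 of the 49 windows. The windows of SMAD6 and BAMBI are shown because they hold the palindrome and the most GGCGCC matches. Those of ID1 and ID3 are shown because both targets had higher levels in both control libraries of D12 than of D0 and in replicate 1 of D70. ID4 met the same rule and is not shown, and its window holds 1 CAGAC 205 bases before the start. Capitals mark the matches, which overlap nowhere, and show letters only and no bound site. SMAD6 is at chr15:66701986-66702235 (plus strand), BAMBI at chr10:28677271-28677520 (plus), ID1 at chr20:31605039-31605288 (plus) and ID3 at chr1:23559502-23559751 (minus), each printed 5′ to 3′ on the strand of the gene.
SMAD6: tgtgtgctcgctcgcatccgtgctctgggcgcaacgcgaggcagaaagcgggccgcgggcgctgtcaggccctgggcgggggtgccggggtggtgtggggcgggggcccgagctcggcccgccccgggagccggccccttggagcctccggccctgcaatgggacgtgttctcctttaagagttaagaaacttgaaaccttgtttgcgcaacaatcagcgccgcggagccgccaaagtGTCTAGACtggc
BAMBI: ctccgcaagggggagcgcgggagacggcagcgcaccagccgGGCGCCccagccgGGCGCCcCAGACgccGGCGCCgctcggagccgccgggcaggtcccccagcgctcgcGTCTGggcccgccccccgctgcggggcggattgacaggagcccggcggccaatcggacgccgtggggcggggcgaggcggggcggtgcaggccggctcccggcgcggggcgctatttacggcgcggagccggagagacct
ID1: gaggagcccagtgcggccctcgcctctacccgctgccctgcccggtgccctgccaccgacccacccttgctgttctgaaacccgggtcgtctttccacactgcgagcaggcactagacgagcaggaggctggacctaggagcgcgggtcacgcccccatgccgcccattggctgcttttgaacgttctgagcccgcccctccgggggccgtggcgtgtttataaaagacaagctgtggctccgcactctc
ID3: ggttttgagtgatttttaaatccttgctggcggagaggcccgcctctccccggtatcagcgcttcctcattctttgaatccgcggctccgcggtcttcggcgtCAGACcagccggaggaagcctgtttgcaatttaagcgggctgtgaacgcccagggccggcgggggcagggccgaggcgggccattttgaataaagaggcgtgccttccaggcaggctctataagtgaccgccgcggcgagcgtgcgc

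BAMBI had 3 matches of GGCGCC and 2 of GTCTG or CAGAC, ID3 had 1 CAGAC 147 bases before the start, and ID1 had no match of any of these letters in its window. A window without a match says nothing of sites elsewhere or of the factor.

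TMG was compared with control at each stage. At 5% edgeR called 0 of the 36 genes at any stage, and 0% of all genes tested. At an unadjusted p under 0.05 there were 0 of 36 on D0 (1.26% of all genes tested), 0 on D12 (2.48%), 7 on D30 (12%, 7.1% higher and 4.89% lower) and 3 on D70 (5.49%). On D30 the 7 were 6 higher genes, BMPR2, TGFB3, INHBB, TGFBR2, NODAL and SMAD7, and 1 lower gene, BMPR1B. The TMG and control libraries of D30 did not overlap for 18 of the 36 genes (14 higher and 4 lower), and for 44.1% of all genes tested (23.1% higher and 21% lower). The median log2 fold change over the 36 was 0.254 on D30 against 0.0113 over all genes tested, and -0.0472, 0.0957 and 0.191 on D0, D12 and D70 against -0.00208, 0.00276 and -0.0102. Without D30 TMG replicate 2 the D30 median over the 36 was -0.00563, with 17 genes above 0 in place of 22, and without replicate 1 it was 0.426.

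On D30, TMG replicate 2 was the library with the high stroma marker sum. The changes of BMPR2, TGFB3, INHBB, TGFBR2, NODAL, SMAD7 and BMPR1B were larger in it than in replicate 1. That of BMP4 was larger in replicate 1, and that of BAMBI was near equal in both. TGFB3 was at 4.51 and 6.62 CPM in control cells and 9.71 and 92.3 CPM in TMG cells, where replicate 2 was 9.5-fold above replicate 1. Its log2 fold change was 3.19 ± 0.78 (edgeR adjusted p = 0.194), and without TMG replicate 2 it was 0.79 ± 0.42. Over the 22 alternatives the adjusted p of TGFB3 ran from 0.00224 with DESeq2 to 1 without TMG replicate 2, and 2 were under 0.05. BMPR2 was at 85.3 and 101 CPM in control and 159.5 and 312 CPM in TMG cells, both TMG libraries above both controls. It had the lowest p of the 36, with 1.34 ± 0.28 (adjusted p = 0.159, 0.00293 to 1 over the 22 alternatives, 3 under 0.05), and it was 0.77 ± 0.23 without TMG replicate 2. BMPR2 was above control in both TMG libraries on D12 and D70 as well, with 59.4 and 64.9 against 99.5 and 82.01 CPM on D12 and 174 and 218 against 221 and 291 CPM on D70.

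BMPR1B moved the other way on D30 and D70. It was at 33.6 and 18.4 CPM in control and 11.8 and 5.58 CPM in TMG cells on D30, and at 18.3 and 13.6 and 6.24 and 3.88 CPM on D70. The TMG libraries were below the controls at both stages, by -1.58 ± 0.48 on D30 (edgeR adjusted p = 0.256) and -1.65 ± 0.48 on D70 (adjusted p = 0.858). On D0 and D12 the TMG and control libraries overlapped. DESeq2 called the D30 difference (adjusted p = 0.0459), and over the 22 alternatives its adjusted p reached 1; without D30 TMG replicate 2 the fold change was -1.13 ± 0.55. The effect on D70 minus that on D30 was -0.07 ± 0.66 on the log2 scale (95% interval -1.59 to 1.44, interaction, adjusted p = 1).

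INHBB was at 0.188 and 0.402 CPM in control and 1.94 and 4.92 CPM in TMG cells on D30 (3.43 ± 1.00, edgeR adjusted p = 0.248, 0.0391 to 1 over the 22 alternatives), a difference that rested on 10 counts in the 2 control libraries. INHBA, the other activin subunit, was at 10.6 and 33.2 against 42.3 and 84.3 CPM, with both TMG libraries above both controls (adjusted p = 0.644). TGFBR2 was at 9.02 and 12.5 against 19.5 and 38.05 CPM (1.42 ± 0.57, adjusted p = 0.367) and SMAD7 at 18.1 and 25.4 against 28.6 and 50.8 CPM (0.86 ± 0.36, adjusted p = 0.373). NODAL was at 0.470 and 0.351 against 0.874 and 1.14 CPM, which are 5 to 12 counts a library. BMP4 and BAMBI were higher in both TMG libraries, at 26.3 and 22.5 against 49.8 and 41.6 CPM and 53.9 and 59.1 against 92.2 and 92.7 CPM, and in these 2 genes the 2 TMG libraries lay close to each other (adjusted p = 0.718 and 0.643). TGFBR3 was lower in both, at 56.3 and 24.2 against 22.8 and 16.3 CPM (adjusted p = 0.468). ID2 was at 38.95 and 166 CPM in the TMG libraries against 64.00 and 56.7 CPM in control, so replicate 2 stood above the controls and replicate 1 below them. Without TMG replicate 2, 2 of the 36 genes had an unadjusted p under 0.05 on D30 (4.27% of all genes) and 0 were called, and without TMG replicate 1, 9 had one (17% of all genes), 0.673% of all genes were called, and TGFB3 and BMPR2 were called (adjusted p = 0.00578 and 0.0178).

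**Figure D3:**
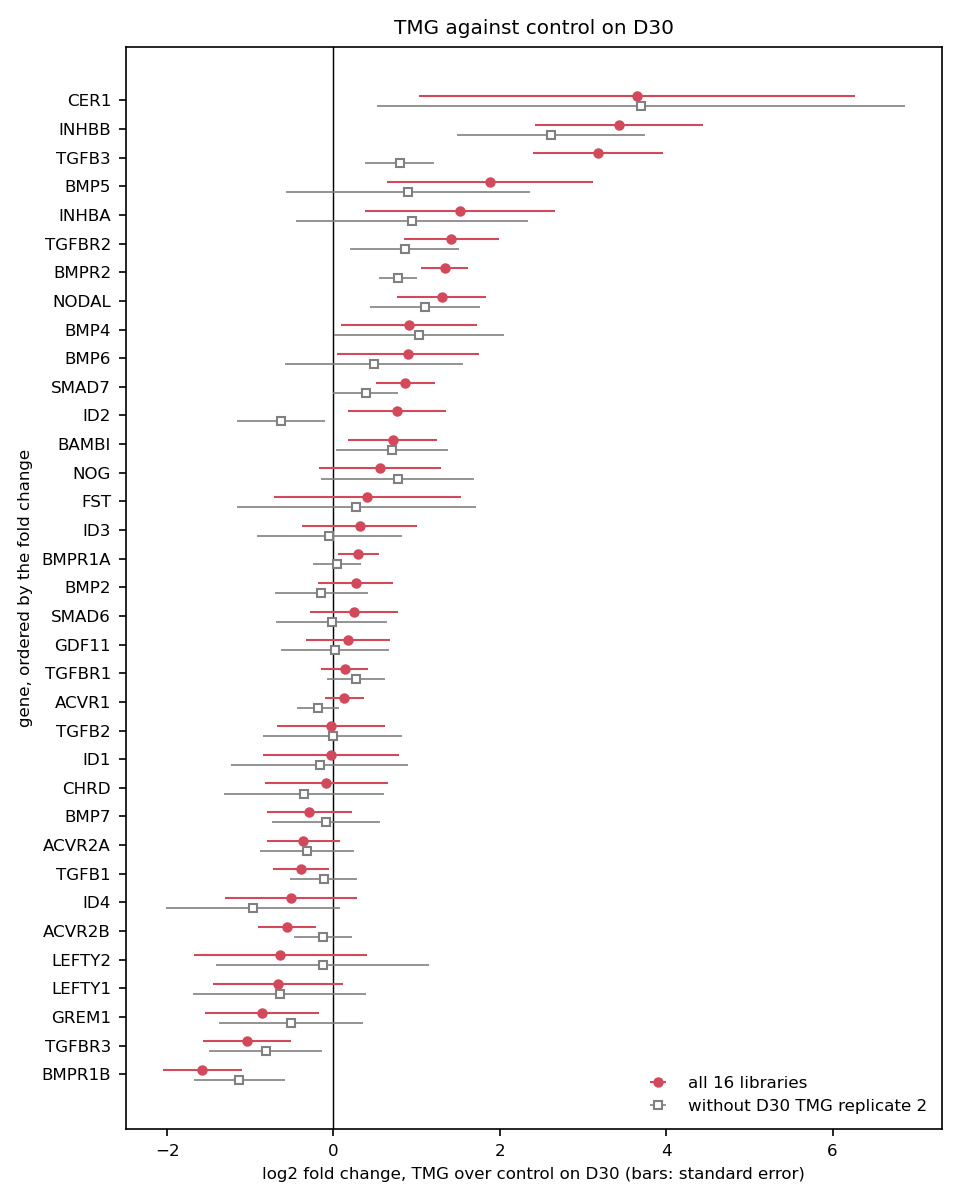
The log2 fold change of TMG over control on D30 for 35 genes (GDF3, at 0 counts, is left out), with bars of 1 standard error: red circles with all 16 libraries, open grey squares without D30 TMG replicate 2. TGFB3 moves from 3.19 to 0.79 and BMPR2 from 1.34 to 0.77 when that library is left out, and 5 genes change sign: BMP2, ACVR1, SMAD6, ID2 and ID3.

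On D70 the 3 genes at an unadjusted p under 0.05 were BMPR1B, FST and TGFBR1. FST was at 7.39 and 34.7 CPM in control and 11.3 and 306 CPM in TMG cells (2.92 ± 1.18, edgeR adjusted p = 0.894), so that 1 library set the difference: without TMG replicate 2 it was -0.89, and without TMG replicate 1 the adjusted p was 0.0349, the lowest over 21 alternatives, whose highest was 1. TGFBR1 was at 112 and 129 against 247 and 139.8 CPM (0.68 ± 0.29, adjusted p = 0.894). On D0, GDF3 was at 3.77 and 3.57 CPM in control and 7.34 and 7.21 CPM in TMG cells and NODAL at 2.78 and 5.11 and 7.07 and 5.98 CPM, without overlap, with an adjusted p of 1 for both. On D0 the libraries of the arms did not overlap for 7 of the 36 genes (6 higher, 1 lower, against 36.6% of all genes tested) and on D70 for 5 (3 higher, 2 lower, against 22.1%).

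On D12 TMG and control did not overlap for 13 genes (8 higher, 5 lower, against 34.3% of all genes tested), and the lowest p among the 36 was that of BMPR2. BMPR2 had 0.55 ± 0.28 (edgeR adjusted p = 1). INHBA was at 0.442 and 0.712 CPM in control and 5.30 and 1.37 CPM in TMG cells, and SMAD7 at 9.04 and 8.54 against 15.4 and 10.00 CPM. Both had higher values in both TMG libraries, with an adjusted p of 1, as for each of the 36 on D12. The targets ID3 and ID4 had lower values in both TMG libraries, at 219.7 and 277 against 188 and 165 CPM and 126 and 70.02 against 66.2 and 56.7 CPM, while ID1 and ID2 overlapped. The ligands that rose on D12 overlapped between the arms for BMP4, at 39.4 and 73.9 against 64.5 and 60.1 CPM, and BMP7, at 115 and 174 against 162 and 123 CPM. BMP2 was at 45.4 and 65.04 against 38.6 and 42.9 CPM. FST was at 32.3 and 9.20 CPM in the TMG libraries, and its low replicate 2 was the library with the highest neural crest marker sum of that day, 538 CPM against 110 to 146 CPM.

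For 4 of the 36 genes (11.1%) both TMG libraries were above both controls at 1 stage and below both at another, as for 14.8% of all genes tested. The TMG effect was also compared between consecutive stages by interaction contrasts, and edgeR called 0 of the 36 and 0% of all genes tested. For D12 minus D0, 0 of the 36 had an unadjusted p under 0.05 (1.07% of all genes). At that level there were TGFB3 for D30 minus D12 (2.70) and TGFB3, BMPR2 and NODAL for D70 minus D30 (-3.60, -0.96 and -1.79), each with an adjusted p of 1 (1 of 36 against 3.41% of all genes, and 3 of 36 against 4.03%).

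Within the TMG arm, edgeR called 25 of the 36 genes in 1 or more pairs of stages, where 38.8% of all genes tested did, and 20 of them were also called in control. From D0 to D12, 13 were called (16.4% of all genes), on D30 against D0 18 (27.7%), on D70 against D0 20 (29%) and on D70 against D12 5 (5.15%). Between D12 and D30 and between D30 and D70, 0 of the 36 were called (0.511% and 0.00825% of all genes), with 9 and 5 at an unadjusted p under 0.05 (15% and 11% of all genes) and 9 and 1 called by DESeq2 (4.78% and 1.53% of all genes). Without D0 TMG replicate 1 or 2, the calls of D12 over D0 became 4 and 5 (6 without either D12 TMG library), those of D30 over D0 7 and 8, those of D70 over D0 10 and 9, and the genes called in at least 1 pair 11 and 13. The 5 calls of D70 over D12 became 3 without either D0 TMG library, 0 without either D12 TMG library and 8 without D70 TMG replicate 1. With a replicate block the calls were 20 on D12 and 29 on D30 against D0, and 11 on D70 against D12 (28.9%, 39.4% and 13.7% of all genes). Over the single left-out libraries the shares of all genes ran from 3.21% to 20.1% for D12, 10.1% to 31.7% for D30 and 10.9% to 29.5% for D70 against D0, and from 0.303% to 11.2% for D70 against D12. The 5 genes called in TMG alone were ACVR2A, BAMBI, BMP5, CHRD and SMAD6, and the 4 called in control alone were BMP6, BMPR1B, CER1 and LEFTY2. A call in 1 arm alone is not a difference between the arms. BAMBI, for example, reached 92.2 and 92.7 CPM on D30 from 20.3 and 18.2 CPM on D0 with TMG (2.26 ± 0.55, adjusted p = 0.013) and 53.9 and 59.1 from 16.6 and 33.1 CPM without it (1.19 ± 0.54, adjusted p = 0.117). FST, GDF11, TGFBR2 and the 4 ID genes were called in neither arm.

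On D70 the 2 replicates stood apart in the same direction in both arms for 15 of the 36 genes, along the line on which the treatment tags differ from the titles. In both arms replicate 1 was at least 2-fold above replicate 2 for 9 of the 36 genes (25.0%, against 7.15% of all genes tested): BMP4, BMP6, TGFB2, NOG, BAMBI, SMAD6, ID1, ID3 and ID4. Replicate 2 was at least 2-fold above replicate 1 in both arms for 6 (16.7%, against 5.26%): BMP5, INHBA, CHRD, FST, ACVR2A and TGFBR2. ID1 was at 218 and 36.6 CPM in control and 249 and 52.4 CPM in TMG cells, and ID3 at 137 and 41.1 and 225 and 38.8 CPM. BMP4 followed the same order, at 36.96 and 14.6 and 71.5 and 9.34 CPM. The first list goes with the higher roof plate and choroid plexus marker sum and the second with the higher stroma marker sum. Other sums split the same way. In control and TMG the neuron marker sum was 1108 and 1095 CPM in replicate 1 against 474 and 197 CPM in replicate 2. The neural crest sum was 63.7 and 250 CPM in replicate 2 against 4.37 and 4.98 CPM in replicate 1. Both lists hold genes of the BMP branch and of the TGF-beta or activin branch. The TGF-beta ligand TGFB2 is in the first list, at 157 and 71.2 CPM in control and 170.0 and 37.2 CPM in TMG cells. The ligand BMP5, at 0.579 and 4.99 and 1.26 and 16.8 CPM, and the BMP antagonist gene CHRD, at 4.56 and 11.6 and 4.66 and 34.8 CPM, are in the second. INHBA was at 2.96 and 33.4 and 17.5 and 105 CPM, and TGFBR2 at 22.3 and 57.9 and 22.2 and 73.2 CPM. The parts of the cell makeup and of the treatment named by the tags in these differences were not tested, and with 1 library of each kind in an arm no test was made. On D0 and D30, 0 of the 36 genes met either rule, and on D12 BMP5 did, with replicate 2 higher (against 0.573% of all genes tested).

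The stroma marker sum can be set beside the genes that were highest in D30 TMG replicate 2. TGFB3 was above 38 CPM in each D70 library, also in replicate 1 with stroma sums of 7724 and 4064 CPM, and at 9.71 CPM in D30 TMG replicate 1 with a sum of 5718 CPM. TGFBR2 was above 38 CPM in the 3 libraries with a sum of 29820 CPM or more and at most 23.4 CPM in the other 13. INHBA was above 33 CPM in these 3 libraries, and also in D30 control replicate 2 and D30 TMG replicate 1. ACVR2B was at 74.3 CPM in D70 TMG replicate 2 and 186 CPM in D30 TMG replicate 2, its lowest level at each of these stages, and BMPR1B was lowest in the same libraries at those stages. The part of stroma cells in the D30 values was not tested. BAMBI on D30 was at 92.2 CPM in TMG replicate 1, with the lower stroma sum, and 92.7 CPM in replicate 2, and BMP4 and NOG were higher in replicate 1.

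**Figure D4:**
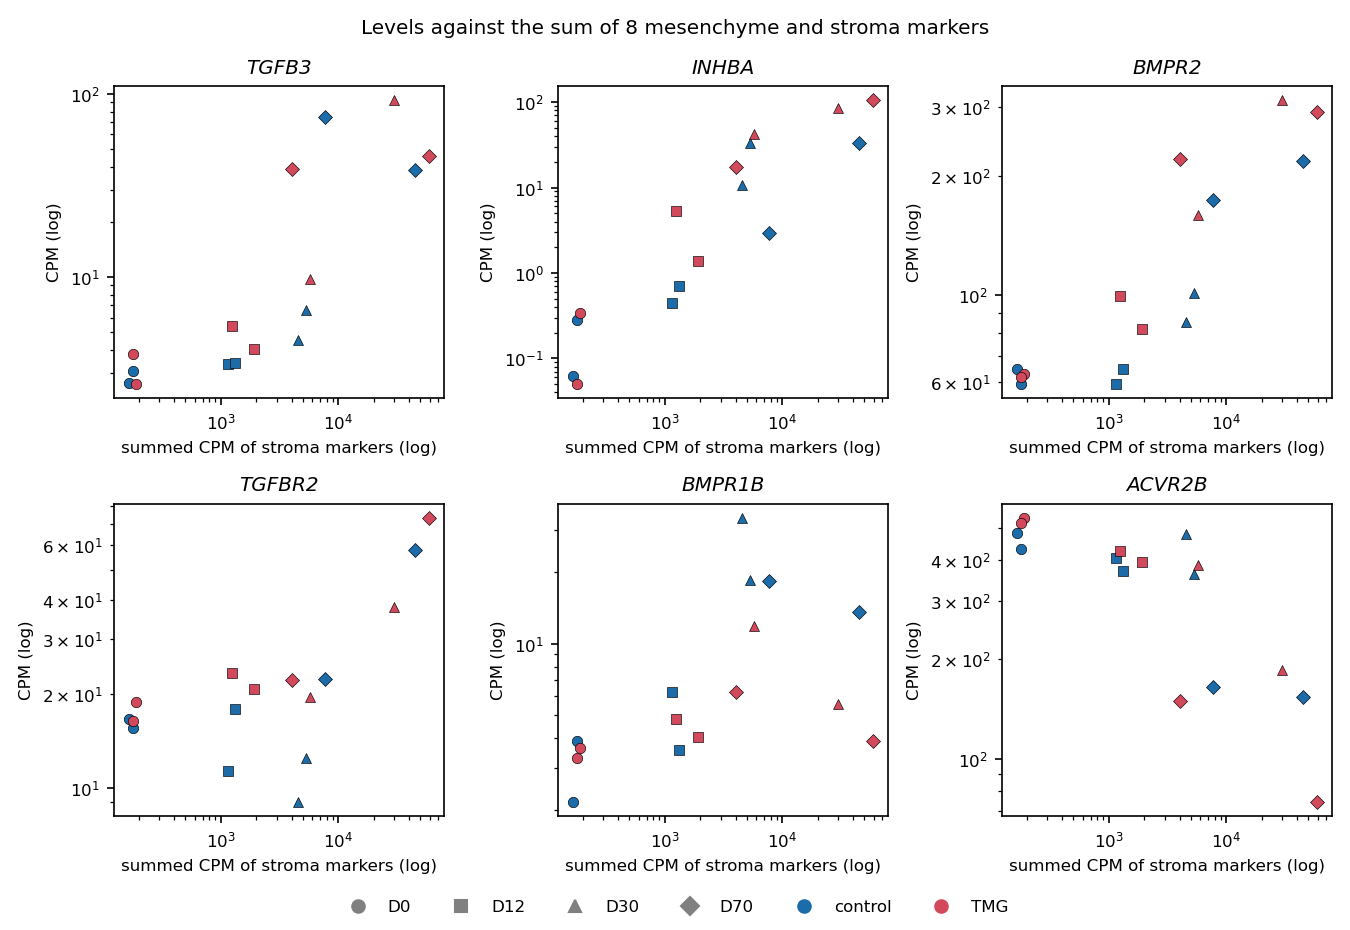
CPM of 6 genes (y axis) against the summed CPM of 8 mesenchyme and stroma markers (x axis), both on log scales, for 16 libraries by day (shape) and arm (colour); the 1 library with 0 counts of INHBA is drawn at 0.05 CPM. TGFBR2 is highest in the 3 libraries at the right, while TGFB3 is also high in the D70 libraries at a middle sum.

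A wider list of 69 pathway genes beside the 36 was fixed for comparison, of which 62 were tested. In control cells 17 of the 62 were called from D0 to D12 (11 higher, 6 lower), which is 27.4% against 16.7% of all genes tested. On D30 against D0 there were 28 (45.2%, against 30.6%), on D70 against D0 32 (51.6%, against 29.8%) and between D12 and D30 6 (9.68%, against 3.6%). Between D30 and D70 edgeR called 0, with 18 at an unadjusted p under 0.05 (29.0%, against 18.4%). The 3 largest rises to D12 were those of GDF7, GDF6 and MSX2. GDF7, a BMP-type ligand that marks the roof plate, was at 0.247 and 0.909 CPM on D0 and 267 and 229 CPM on D12, and it fell to 53.5 and 46.9 CPM by D30. GDF6, another BMP-type ligand, went from 0.618 and 1.75 to 54.3 and 51.6 CPM, and MSX2, a target of BMP signals, from 0.432 and 2.59 to 28.9 and 52.1 CPM. The 3 largest falls were in TDGF1, FOXH1 and PMEPA1, which act in or respond to the nodal and TGF-beta branch. TDGF1, the nodal co-receptor, fell from 320.0 and 315 CPM to 0 and 0.219 CPM, FOXH1, the SMAD2 partner, from 56.9 and 48.6 to 0.491 and 0.986 CPM, and PMEPA1, a TGF-beta target, from 29.5 and 36.4 to 1.33 and 1.53 CPM. PMEPA1 was among the 3 largest rises from D12 to D30, at 12.1 and 19.5 CPM, together with the gene TLL1, for a protease that cleaves chordin, (0.246 and 0.164 to 9.77 and 4.82 CPM) and LRRC32, which anchors latent TGF-beta (2.46 and 2.35 to 15.9 and 16.01 CPM). BMPER, a BMP-binding protein gene, fell beside GDF7, from 4.67 and 7.23 to 0.470 and 0.502 CPM. In control cells PMEPA1 and SMAD7 were both lowest on D12 and without overlap higher on D30. The medium with the inhibitors was replaced between these stages, and the part of that replacement was not tested. For TMG against control, 0 of the 62 were called at any stage by edgeR, and 1, 4, 18 and 4 had an unadjusted p under 0.05 on D0, D12, D30 and D70 (1.61%, 6.45%, 29.0% and 6.45% of the 62, against 1.26%, 2.48%, 12% and 5.49% of all genes tested).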

How the data were processed

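Total RNA of 16 samples was depleted of ribosomal RNA and sequenced. Per the labels, reads were placed on hg19 by Bowtie2, and the authors deposited RSEM 1.2.12 expected counts (estimated counts) for each Ensembl gene, as whole numbers and not normalized; the rounding and the use of strand are not given in the sources used here. Groups were taken from the library titles. The counts were tested with edgeR 4.0.16 in R 4.3.3: TMM scaling, filterByExpr over 8 groups (minimum count 10, minimum total 15), a robust quasi-likelihood fit with 1 mean per group over 16 libraries (8 residual degrees of freedom) and Benjamini-Hochberg adjustment over 24249 genes within each comparison, called at 5%. The code of the fit was run on simulated counts with planted changes and the same spread set for all genes. That run does not show how well the fit does on these libraries. Replicates differed by 25.55 to 158.8 times counting error (chi-square per degree of freedom), so depth limits only genes with few counts; 3 counts were taken as the floor of a library. Gene lengths for CPM per kilobase came from the GENCODE annotation of GRCh37, and the 1 mean and SD of a group rest on 2 libraries.

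The text names all 36 genes and, of the wider list, the 3 largest rises and falls among those called in each consecutive pair of stages in control cells. The genes and lists were chosen with earlier results of these data known. Alternatives were DESeq2 1.42.0, RLE scaling, no filter, a replicate block, fits of fewer stages, each library left out, and the longest transcript as length. Protein sequences and the fold changes of the study were not used here.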

Additional observations from a re-analysis of the deposited data

Results flagged for a closer look

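In 4 of the 36 genes both TMG libraries were above both controls at 1 stage and below both at another (11.1%, against 14.8% of all genes tested). GREM1 was higher with TMG on D0 and D70 and lower on D30: the log2 fold change on D30 minus that on D0 was -1.85, which was not tested, and D70 minus D30 was 2.0 (interaction, edgeR adjusted p = 1). FST was lower on D12 and higher on D30 (D30 minus D12, 1.26, adjusted p = 1), and ACVR2A was higher on D12 and lower on D30 (-0.454, adjusted p = 1). ACVR2B was higher on D0 and lower on D70 (D70 minus D0, -0.707, not tested).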

How the results depend on the processing

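The 63 calls between stages in control cells kept their direction under each alternative run. All were kept with DESeq2, 62 with RLE scaling or a replicate block, 50 without the filter and 46 in fits of the stages compared, and single left-out libraries kept 37 to 63. With RLE, 6 of 288 group means moved by more than 1 SD, and with the longest transcript 43 of 144 levels per kilobase did. The cause of the changes below was not tested.

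The counts below show how far the number of members called moves with the fit. The share of all genes moves too. On D30 over D0 in control it was 42.1% with the replicate block and 30.6% in the main fit. In TMG it was 28.9% against 16.4% on D12 over D0 and 39.4% against 27.7% on D30 over D0. Where no share under the same fit is given, a count is no result about the members. In control cells, members called on D30 over D0 numbered 25 with the replicate block. On D30 over D12 they were 8 with DESeq2, 9 with the block, 10 without the D70 libraries and 8 in a fit of those stages, on D70 over D12 1 in a fit of those stages, and on D70 over D30 6 with DESeq2, 1 without the filter and 5 with the block. In TMG cells, D12 over D0 gave 20 with the block, 22 without D70 and 24 with those stages alone; D30 over D0 gave 29 with the block and 28 without D70; D70 over D0 gave 12 with those stages alone; D30 over D12 gave 9 with DESeq2, 1 with RLE, 3 without the filter, 9 with the block, 9 without D70 and 8 with those stages alone; D70 over D12 gave 10 with DESeq2, 11 with the block and 0 with those stages alone; D70 over D30 gave 1 with DESeq2. For TMG against control on D30, DESeq2 called 4 and the block 1. The share of all genes called under these fits is not given here, so neither count is a result about the members. At an unadjusted p under 0.05 there was 1 gene on D0 without D70 and with that stage alone. On D12 there were 1 with DESeq2, 5 with the block, 1 without D70 and 3 with that stage alone. On D70 there were 7 with the block and 1 with that stage alone. The share of all genes at that level under these fits is not given here.

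Leaving out 1 library at a time gave these ranges of members called in control: 5 to 14 for D12 over D0, 10 to 20 for D30 over D0, 10 to 23 for D70 over D0, 0 to 5 for D30 over D12, 0 to 14 for D70 over D12, 0 to 2 for D70 over D30, and 16 to 29 in at least 1 pair. In TMG they were 4 to 15, 7 to 23, 9 to 21, 0 to 5, 0 to 8, 0 to 5 and 11 to 28. The low ends came from leaving out a library of a stage compared, such as D12 control replicate 2 (5), D0 control replicate 1 (10 on D30 and D70), D12 control replicate 1 or 2 (0 on D70 over D12) and D0 TMG replicate 1 (4, 7 and 11). For TMG against control the ranges were 0 to 0 on D0 and D12, 0 to 2 on D30 (2 without TMG replicate 1) and 0 to 1 on D70 (1 without TMG replicate 1), and at an unadjusted p under 0.05 they were 0 to 2, 0 to 1, 2 to 9 (2 without TMG replicate 2) and 3 to 10 (10 without TMG replicate 1). Shares of all genes under the same fits are given above for part of these counts. The other counts show only how far a count moves and are no result about the members. The log2 D70 effect of TMG on FST ran from -0.89 (without TMG replicate 2) to 4.45 (without control replicate 2). That on ID2 on D30 was 0.76 with all libraries. It ran from -0.63 (without TMG replicate 2) to 1.46 (without TMG replicate 1). On D30, BMP2, ACVR1, SMAD6 and ID3 also changed sign without TMG replicate 2, and CHRD, ID1 and TGFBR1 without TMG replicate 1.

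No source says that a replicate number marks a shared culture or day. Replicate differences of the arms correlated at r = 0.0453, 0.367, 0.223 and 0.607 from the first stage to the last, over 0.1 at 3 of the 4 stages, and since D0 fell short the numbers were not taken as pairs and the block was run as an alternative. Under the replicate block BMPR2 was called for TMG on D30.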
